A study of Mus musculus with 37 samples.

Results

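Dazl, Ddx4, Sohlh1, Sohlh2, Stk31 and Boll encode RNA-binding proteins, transcription factors and a Tudor protein that germ cells switch on as they commit to making gametes. They were chosen by symbol, 6 genes of the 24318 listed in each of 2 deposited expression tables, and each symbol was found once in both tables. The study sequenced polyadenylated RNA of mouse primordial germ cells (PGCs), from which eggs and sperm descend, with and without Dnmt1, the enzyme that maintains DNA methylation. The knockout, DCKO in the labels, came from females homozygous for a floxed Dnmt1 allele (Dnmt1 2lox) that also carried the Oct4-IRES-Gfp reporter, mated to males with Blimp1-Cre. Blimp1 drives Cre from the time germ cells are specified and is also active in some somatic lineages. DCKO libraries have the genotype Dnmt1 -/- in the labels, and controls have wild type. By the cross every embryo inherits 1 floxed allele from the mother, and the labels do not say which other alleles the controls carried. Cells of both genotypes were sorted for GFP, and their RNA was amplified before library construction.

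The DCKO libraries numbered 3 at E10.5, 2 from females and 1 from a male, set against 4 controls, 2 per sex. At E11.5 there were 6 female and 4 male DCKO libraries, set against 4 female and 4 male controls. Values are RPKM, reads corrected for the length of the transcript and for how many were mapped, so levels of different genes are given per length. Whether replicate libraries are from different embryos is not stated in the labels, so p-values here speak of the scatter among these libraries, part of which may be technical. Dnmt1 itself averaged 29.6 ± 16.3 RPKM in DCKO libraries and 130 ± 76.6 RPKM in controls at E11.5 (SD, n = 10 and 8), and no DCKO library reached the lowest control at either stage.

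In mouse germ cells Dazl, an RNA-binding protein of the DAZ family, binds the 3′ ends of messenger RNAs and regulates their translation, and it is needed for PGCs to leave their pluripotency-like state and become competent for sex-specific differentiation and meiosis. This step is called licensing. Ddx4 (mouse vasa homologue) is an RNA helicase of germ granules, Sohlh1 and Sohlh2 are basic helix-loop-helix transcription factors of early spermatogonia and oocytes, Stk31 is a germ cell protein with a Tudor domain and a kinase-like domain, and Boll (Boule-like) is the DAZ family member of spermatogenesis. Several germline genes of this kind have CG-containing promoters that carry DNA methylation in somatic cells and lose it in migrating and gonadal PGCs.

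The promoters of the 4 members with the highest mean RPKM at E11.5 are shown because CG dinucleotides are what Dnmt1 methylates. Each sequence is the 250 bases before the annotated start in RefSeq on GRCm38.p6, 5′ to 3′ on the gene's strand, with every CG in capitals. Methylation was not measured in these files.
Dazl, chr17:50293621-50293870, minus strand: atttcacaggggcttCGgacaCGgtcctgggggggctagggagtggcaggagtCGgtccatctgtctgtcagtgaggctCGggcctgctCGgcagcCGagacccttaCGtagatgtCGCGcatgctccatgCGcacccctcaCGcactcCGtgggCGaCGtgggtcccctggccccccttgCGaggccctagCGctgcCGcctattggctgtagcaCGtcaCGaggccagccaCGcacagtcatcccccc
Ddx4, chr13:112652311-112652560, minus strand: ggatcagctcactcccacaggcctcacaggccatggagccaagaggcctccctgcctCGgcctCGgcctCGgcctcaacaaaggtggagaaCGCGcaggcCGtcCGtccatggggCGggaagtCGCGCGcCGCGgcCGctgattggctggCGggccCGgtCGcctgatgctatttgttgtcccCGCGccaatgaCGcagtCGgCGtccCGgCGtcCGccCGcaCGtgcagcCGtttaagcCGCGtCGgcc
Sohlh2, chr3:55181794-55182043, plus strand: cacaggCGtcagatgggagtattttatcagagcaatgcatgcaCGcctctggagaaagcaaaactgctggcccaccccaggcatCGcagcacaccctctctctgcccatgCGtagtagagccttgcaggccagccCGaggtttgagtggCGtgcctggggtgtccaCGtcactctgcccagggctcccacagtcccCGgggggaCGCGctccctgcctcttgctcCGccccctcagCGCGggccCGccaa
Stk31, chr6:49395289-49395538, plus strand: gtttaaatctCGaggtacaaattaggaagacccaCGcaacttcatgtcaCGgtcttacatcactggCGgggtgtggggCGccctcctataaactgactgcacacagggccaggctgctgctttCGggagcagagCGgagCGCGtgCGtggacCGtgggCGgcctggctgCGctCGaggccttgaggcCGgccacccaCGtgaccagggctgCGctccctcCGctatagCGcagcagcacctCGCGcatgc

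All 4 windows were richer in CG than most promoters. The Ddx4 window held 31 CG, the Stk31 window 21, the Dazl window 20 and the Sohlh2 window 14, against a median of 6 and a 10th to 90th percentile range of 1 to 25 over 32851 promoter windows of the same length. The Sohlh1 window held 11 CG. Stk31 and Boll each had 2 annotated windows: the second Stk31 window held 26 CG, and the Boll windows held 11 and 33. The E-box CACGTG, which overlaps a CG by its own letters, was found 3 times in the Sohlh1 window and 1 time each in the Ddx4 window, both Stk31 windows and the first Boll window, and in 6.02% of all windows. Dazl and Sohlh2 had none in these windows. TCCCGC, read on both strands and also containing a CG, was found 1 time in the Ddx4 window, in no other member's window, and in 16.9% of all windows. These are matches of letters only.

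Dazl had the largest fitted fold change of the 5 tested members at both stages, and it was higher in DCKO libraries. At E10.5 it stood at 36.4 and 74.5 RPKM in female DCKO libraries and 78.8 RPKM in the male one, against 4.24 and 12.1 RPKM in female controls and 5.90 and 30.9 RPKM in male controls. All 3 DCKO libraries lay above all 4 controls, which held for 2.28% of tested genes at this stage. For 333 of the 11584 genes tested, all DCKO libraries lay below all controls. At E11.5 Dazl ran from 115 through a median of 143 to 182 RPKM in female DCKO libraries, against 48.7, 17.5, 57.2 and 40.3 RPKM in female controls. In males it stood at 90.7, 87.6, 89.6 and 194 RPKM in DCKO libraries, against 81.8, 44.5, 4.50 and 12.1 RPKM in controls. No control library of either sex reached the lowest DCKO library.

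**Figure D1:**
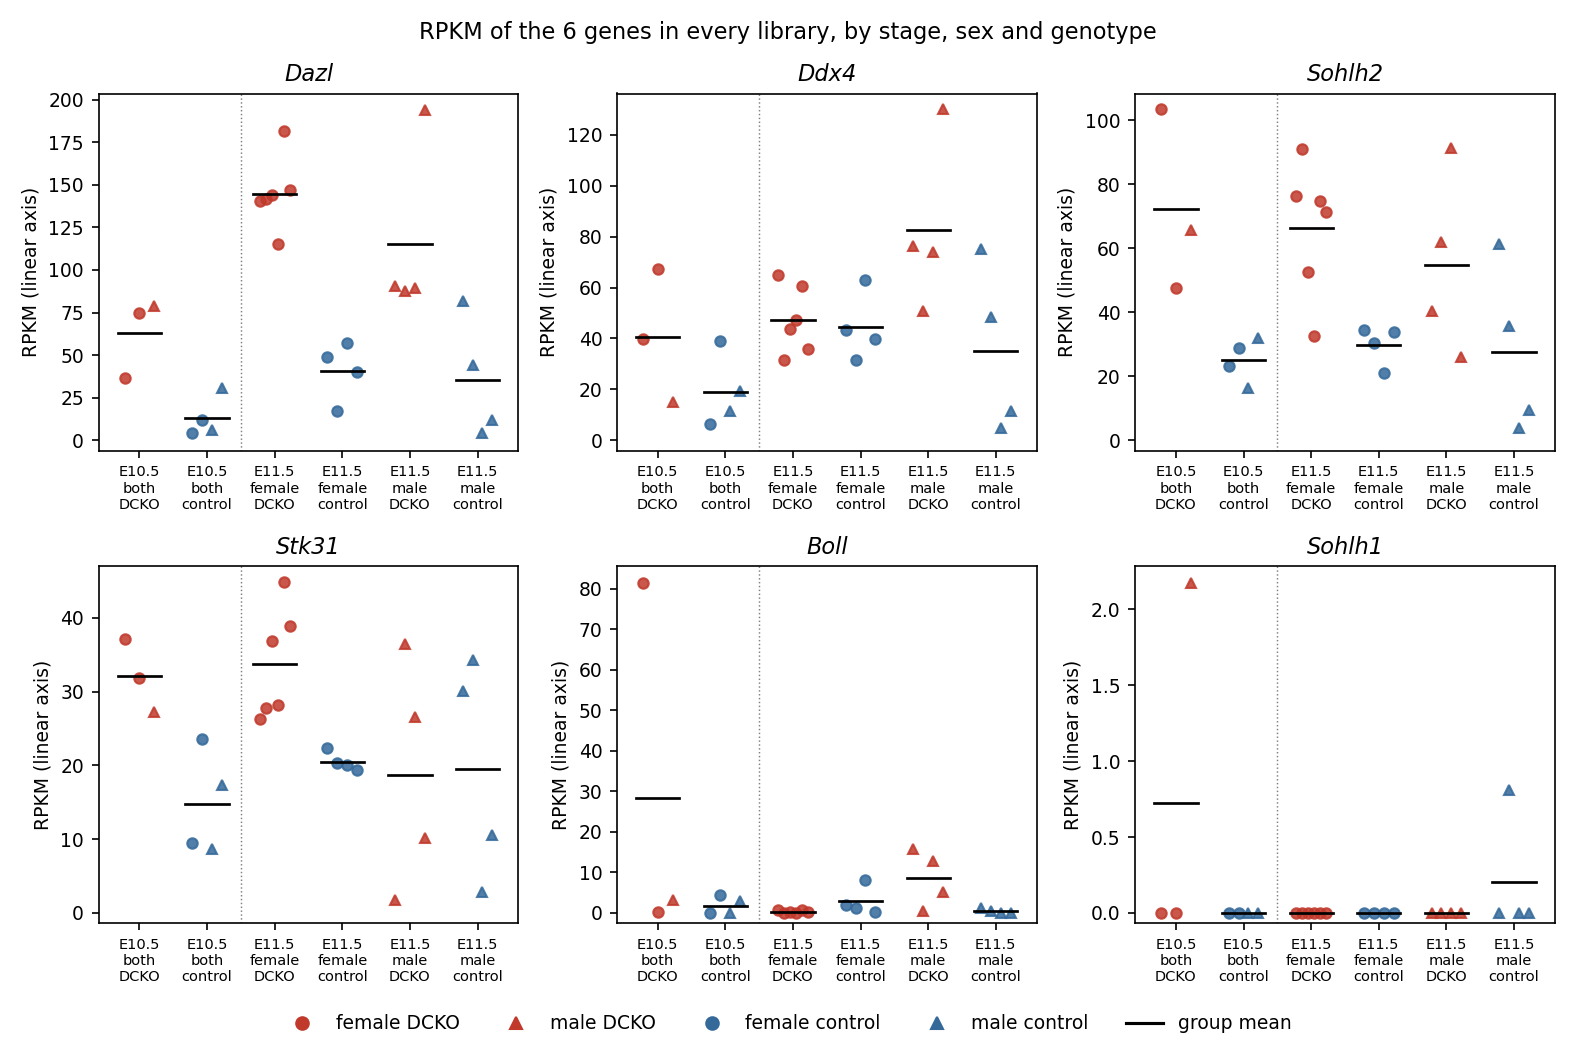
RPKM on linear axes for each gene in every library (circles female, triangles male, red DCKO, blue control), with black lines at group means; the E10.5 groups pool both sexes, and Dazl shows every DCKO library above every control at both stages.

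The E11.5 mean of Dazl was 133 ± 37.4 RPKM in DCKO libraries and 38.3 ± 25.8 RPKM in controls (SD, n = 10 and 8), a log2 fold change of 2.08 (SE 0.41) on the log2(RPKM + 1) scale. Every fold change given here is on this scale, which understates changes of low genes. An exact two-sided permutation of the 18 libraries gave p = 2.3e-05, the smallest of the 43758 splits, and exchange within sex and within the number that starts the sample title gave 6.8e-05 and 0.00154, each the smallest possible. These p-values all follow from the same full separation of the genotypes, so none adds to the others. Dazl was the only gene of the 12667 tested with all 10 DCKO libraries above all 8 controls (0.00789% of genes). In the other direction, 4 genes had all DCKO libraries below all controls: Dnmt1, Maml1, Npm1 and Peak1. Dazl kept its place after median-of-ratios scaling, but after quantile normalization Dazl was not separated upward and 1 other gene, 1700013H16Rik, was. Dnmt1, Npm1 and Peak1 stayed separated downward under both of these scalings. In limma across all genes Dazl ranked 8th by p, with a Benjamini-Hochberg adjusted p of 0.113, which misses 0.05. Without male control 1, the control with the most Dazl, the fold change was 2.39 and limma's adjusted p 0.0141. With the mean of 14 germ cell markers as a covariate, an alternative added after seeing the data, it was 2.14 with an adjusted p of 0.0465. In the other 29 alternatives limma's adjusted p ran from 0.0967 to 0.981.

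Dazl was higher in DCKO libraries of both sexes. It averaged 145 ± 21.4 RPKM in female DCKO libraries and 40.9 ± 17.1 RPKM in female controls (SD, n = 6 and 4), and 115 ± 52.4 RPKM in male DCKO libraries and 35.7 ± 35.3 RPKM in male controls (SD, n = 4 each). The order of the 4 groups was female DCKO, male DCKO, female control, male control. The pairs of neighbours within a genotype overlapped, while the step between male DCKO and female control libraries had no overlap. Exact permutation within one sex gave p = 0.00476 in females (the smallest of 210 splits) and 0.0286 in males (smallest possible 0.0143). The log2 fold change was 1.91 (SE 0.55) in females and 2.26 (SE 0.61) in males. The fitted difference between these effects, female minus male, was -0.36 (SE 0.82), so the data do not resolve whether the effects are of equal size.

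Libraries whose titles start with the same number can be set side by side, although the labels do not say what the number marks. At E11.5 5 such numbers held both genotypes, giving 13 pairs, and Dazl was higher in the DCKO library in 13 of 13. At E10.5 it was higher in 5 of 5 pairs from 2 numbers. The same count was 12 of 13 and 5 of 5 for Sohlh2, 9 of 13 and 5 of 5 for Stk31, 9 of 13 and 3 of 5 for Ddx4, and 8 of 13 and 2 of 5 for Boll. Pairs that share a library are not independent. For Dazl at both stages, and for Sohlh2 and Stk31 at E10.5, every DCKO library lay above every control. Their counts there would be full under any pairing and add nothing to that separation.

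**Figure D2:**
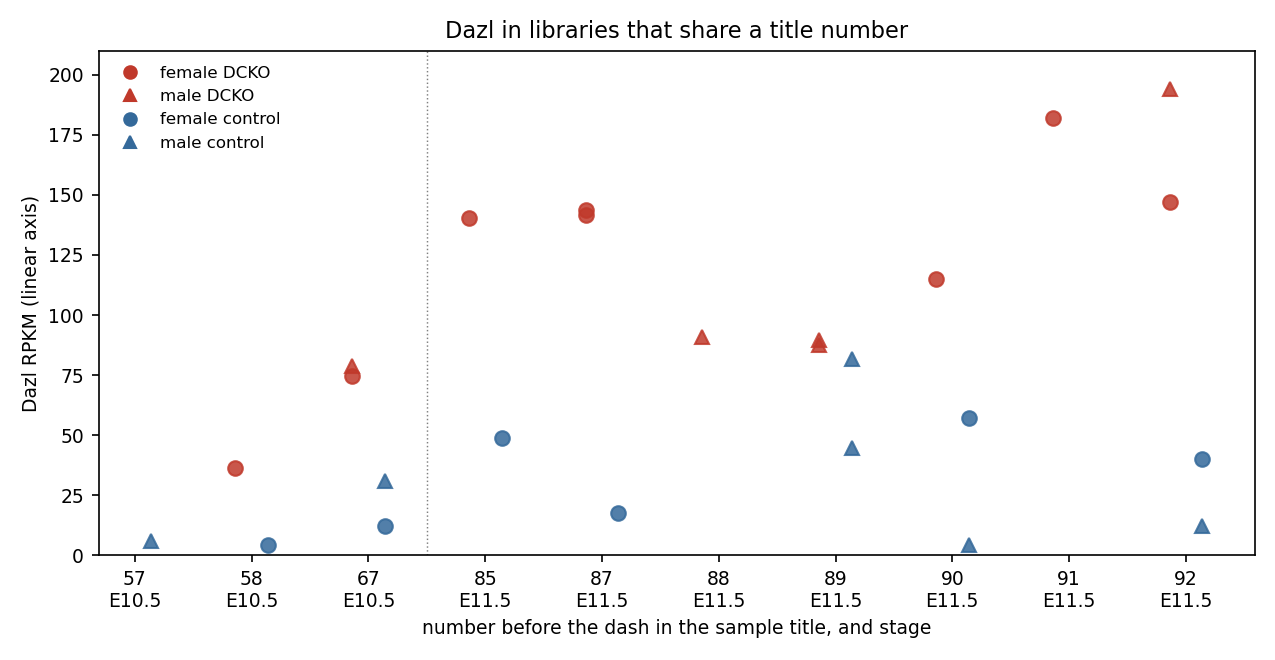
Dazl RPKM on a linear axis in each library, arranged by the number that starts the sample title and by stage (red DCKO, left; blue control, right; circles female, triangles male); within each number that has both genotypes, every DCKO point lies above every control point. Full separation at each stage makes this so under any grouping.

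The closest approach was under number 89 at E11.5, where the male DCKO libraries had 87.6 and 89.6 RPKM, against 81.8 and 44.5 RPKM in the male controls.

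Set side by side without a test, since the stage tables may have been normalized separately, Dazl averaged 63.2 ± 23.4 RPKM in DCKO libraries and 13.3 ± 12.2 RPKM in controls at E10.5 (SD, n = 3 and 4), against the 133 and 38.3 RPKM of E11.5. The E10.5 DCKO libraries, at 36.4 to 78.8 RPKM, lay inside the range of the E11.5 controls, 4.50 to 81.8 RPKM. The top of that range is male control 1 alone, and the next highest E11.5 control had 57.2 RPKM. The E10.5 log2 fold change was 2.58 (SE 0.64), rank 11 of 11584 genes. limma's adjusted p was 0.991, and exact permutation gave 0.0571, where 3 against 4 libraries cannot go below 0.0286.

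Boll, the other DAZ family member, was low and uneven. At E10.5 it had 81.5 and 0.142 RPKM in female DCKO libraries and 3.25 RPKM in the male one, against 0.0942 and 4.39 RPKM in female controls and 0 and 2.85 RPKM in male controls. One female DCKO library thus held nearly all of it, and the groups overlapped. An exact 0 in such tables can be a failed estimate, so a gene is described as listed at 0. At E11.5 female DCKO libraries ran from 0 through a median of 0.223 to 0.789 RPKM, against 1.88, 1.21, 8.10 and 0.115 RPKM in female controls. Male DCKO libraries had 15.7, 0.454, 12.7 and 5.26 RPKM, against 1.19, 0.412, 0.0671 and 0 RPKM in male controls. Thus 3 of 4 female controls lay above every female DCKO library, while 3 of 4 male DCKO libraries lay above every male control.

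Over both sexes the log2 fold change of Boll was 1.65 (SE 1.42) at E10.5, and it rested on single libraries, at 0.01 without female DCKO 1, 3.10 without female DCKO 2 and -0.82 with library weights. At E11.5 it was 0.60 (SE 0.48). Exact permutation gave p = 0.457 and 0.585 for these stages. The fitted direction of Boll differed by sex at E11.5. Its log2 fold change was -1.13 (SE 0.65) in females and 2.33 (SE 0.71) in males, and the difference between them, female minus male, was -3.46 (SE 0.97). In limma this interaction ranked 9th of 12667 genes by p, with an adjusted p of 0.995. No gene of the 12667 passed for the interaction (0%), while 226 had an unadjusted p under 0.05 with a positive and 228, Boll and Ddx4 among them, with a negative difference. Exact permutation within one sex gave p = 0.0333 in females, with DCKO lower, and 0.0571 in males. Among female libraries 3.09% of genes had such a p under 0.05 with DCKO lower. Within DCKO libraries Boll averaged 0.326 ± 0.311 RPKM in females and 8.55 ± 6.96 RPKM in males (SD, n = 6 and 4). The fitted difference was -2.38 (SE 0.65) with an adjusted p of 0.356 in limma.

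Ddx4, whose messenger RNA is itself a reported target of Dazl protein in mouse, overlapped between the genotypes at both stages. At E11.5 it ran from 31.5 through a median of 45.5 to 64.8 RPKM in female DCKO libraries, against 43.4, 31.4, 62.8 and 39.7 RPKM in female controls. In males it stood at 76.2, 50.7, 73.8 and 130 RPKM in DCKO libraries, against 75.1, 48.3, 4.92 and 11.4 RPKM in controls. The female groups overlapped almost fully, and in males 2 of 4 DCKO libraries lay above all controls. At E10.5 Ddx4 had 39.7 and 67.3 RPKM in female DCKO libraries and 15.0 RPKM in the male one, against 6.37 and 38.9 RPKM in female controls and 11.499 and 19.4 RPKM in male controls, again with overlap.

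The E11.5 log2 fold change of Ddx4 was 0.94 (SE 0.40), with limma's adjusted p at 0.902 and an exact permutation p of 0.0649. It was 0.09 (SE 0.54) in females and 1.79 (SE 0.59) in males, and limma's adjusted p of the difference, -1.70 (SE 0.80), was 0.995. Leaving out 1 library at a time gave permutation p from 0.0224 without male control 1 to 0.163 without male control 3, and it was under 0.05 also without female DCKO 2 (0.0426) or female control 3 (0.0348). The log2 fold change was 0.61 without male control 3 and 0.36 with library weights. At E10.5 the log2 fold change was 0.97 (SE 0.68), and the exact permutation p was 0.200.

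**Figure D3:**
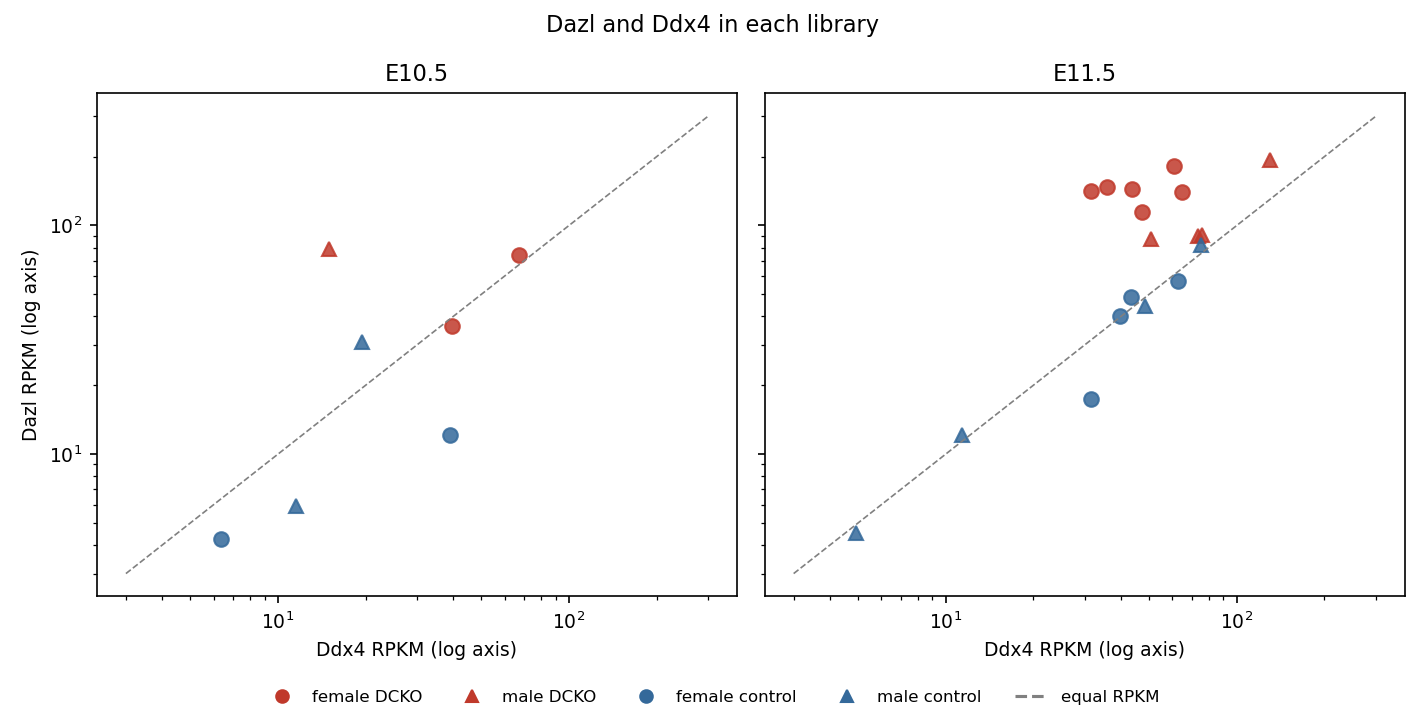
Dazl against Ddx4 RPKM in each library, both on log axes, E10.5 left and E11.5 right (circles female, triangles male, red DCKO, blue control; dashed line, equal RPKM). At E11.5 every DCKO library lies above the line and the controls lie near or below it.

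A ratio of Dazl to Ddx4 RPKM within each library, chosen after the values were seen and given as a description, set the genotypes apart at E11.5. It was 2.17 to 4.49 in female DCKO libraries and 0.556 to 1.12 in female controls, and 1.19 to 1.73 in male DCKO libraries and 0.915 to 1.09 in male controls. The lowest DCKO ratio, 1.19, was above the highest control ratio, 1.12. In the controls both genes moved together over a wide range, from 4.50 RPKM of Dazl and 4.92 of Ddx4 in male control 3 to 81.8 and 75.1 in male control 1. At E10.5 the ratio was 0.916, 1.11 and 5.26 in DCKO libraries and 0.310 to 1.59 in controls, with overlap.

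Sohlh2 was higher in most DCKO libraries at both stages, and it is the member transcription factor with values in every library. At E10.5 it had 103 and 47.7 RPKM in female DCKO libraries and 65.6 RPKM in the male one, against 23.1 and 28.9 RPKM in female controls and 16.5 and 32.04 RPKM in male controls. All DCKO libraries lay above all controls, as for 2.28% of tested genes at that stage. At E11.5 it ran from 32.7 through a median of 73.0 to 90.8 RPKM in female DCKO libraries, against 34.5, 30.5, 20.9 and 33.8 RPKM in female controls. In males it stood at 40.5, 61.9, 91.1 and 25.9 RPKM in DCKO libraries, against 61.2, 35.8, 3.74 and 9.46 RPKM in controls. Of the 10 DCKO libraries 6 were above every control, and 3 of the 8 controls were below every DCKO library.

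At E11.5 Sohlh2 averaged 61.8 ± 23.2 RPKM in DCKO libraries and 28.7 ± 17.8 RPKM in controls (SD, n = 10 and 8). Its log2 fold change was 1.27 (SE 0.41), with an exact permutation p of 0.00411 and an adjusted p of 0.880 in limma. In females the log2 fold change was 1.08 (SE 0.56) and the exact permutation p 0.0190, and in males 1.46 (SE 0.61) and 0.171. At E10.5 it was 1.43 (SE 0.43). The exact permutation p there was 0.0286, the smallest that 35 splits allow, and limma's adjusted p was 0.991. Leaving out any 1 library of E10.5 raised that smallest possible p to 0.05 or more.

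Sohlh1, the partner of Sohlh2 in spermatogonia, was listed at 0 almost throughout. The only values above 0 were 2.18 RPKM in the male DCKO library at E10.5 and 0.810 RPKM in male control 2 at E11.5. Its mean was under 1 RPKM at both stages, so it failed the filter on low values and was not tested across genes.

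Stk31 separated the genotypes at E10.5 and in E11.5 females, but not in E11.5 males. At E10.5 it had 37.1 and 31.9 RPKM in female DCKO libraries and 27.2 RPKM in the male one, against 9.42 and 23.6 RPKM in female controls and 8.69 and 17.4 RPKM in male controls. The groups did not overlap, and 2.28% of tested genes were separated in this direction at that stage. At E11.5 Stk31 ran from 26.2 through a median of 32.5 to 44.9 RPKM in female DCKO libraries, against 22.3, 20.3, 20.0045 and 19.4 RPKM in female controls. There was again no overlap, as for 0.371% of tested genes with DCKO higher among E11.5 females. In males it stood at 1.70, 36.5, 26.5 and 10.2 RPKM in DCKO libraries, against 30.1, 34.3, 2.88 and 10.6 RPKM in controls, where both genotypes spanned the same range.

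The log2 fold change of Stk31 at E10.5 was 1.12 (SE 0.49), with an exact permutation p of 0.0571 and an adjusted p of 0.991 in limma. In E11.5 females it was 0.67 (SE 0.64) with an exact permutation p of 0.0143, and in males -0.17 (SE 0.70) with a p of 0.8. limma pools its spread over the 4 groups, so the male scatter enters the female error. Over both sexes it was 0.25 (SE 0.47), and without male control 3 it was -0.07. The difference between the sexes was 0.84, with an adjusted p of 0.995 in limma.

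**Figure D4:**
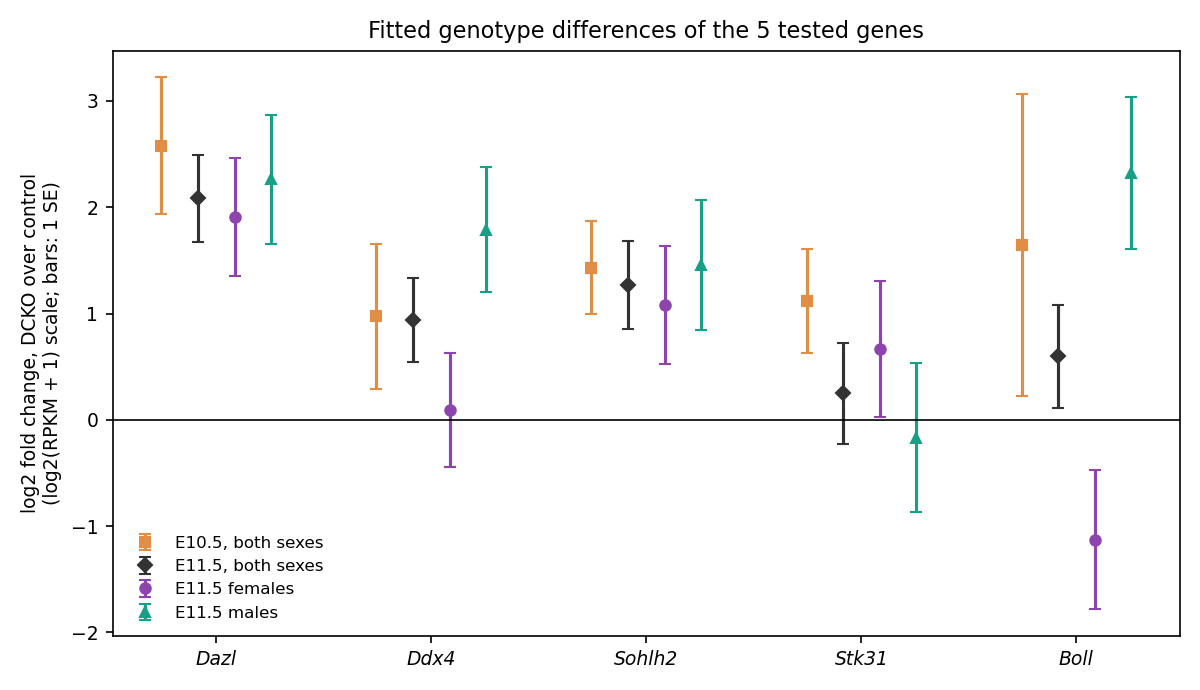
Fitted log2 fold change, DCKO over control, of the 5 members past the filter on low values, with bars of 1 SE, for E10.5 and E11.5 over both sexes and for each sex at E11.5. Dazl lies near 2 or above in all 4 comparisons, while Boll points in opposite directions in E11.5 females and males.

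Counted over the members, 5 of 6 passed the filter of a mean of 1 RPKM at each stage, and 0 of these 5 passed an adjusted p of 0.05 in limma in any comparison. Over all genes 3 of 12667 passed for genotype at E11.5 (0.0237%), 1 for females alone (0.00789%), 4 for males alone (0.0316%), and 0 of 11584 at E10.5 (0%). Unadjusted p under 0.05 was reached by 219 genes with a positive E11.5 fold change, Dazl, Sohlh2 and Ddx4 among them, and by 473 with a negative one, and at E10.5 by 173 and 185 genes. For the difference of females minus males, 1 gene passed within DCKO libraries (0.00789%) and 1 within controls (0.00789%), neither a member. In controls the fitted sex differences of the members were 0.53 for Stk31 to 1.07 for Boll, all with adjusted p of 1.00 in limma.

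By exact permutation of each gene alone, not adjusted for the 6 genes and 2 stages, 2 of 6 members at E11.5 (Dazl and Sohlh2) and 1 of 6 at E10.5 (Sohlh2) had p under 0.05 with DCKO higher. The share over all tested genes was 1.67% at E11.5 and 1.19% at E10.5. Within females at E11.5 3 members (Dazl, Sohlh2 and Stk31) did, against 1.67% of genes, and within males 1 (Dazl), against 0.845%. All DCKO libraries lay above all controls for 3 members at E10.5 (Dazl, Sohlh2 and Stk31), against 2.28% of genes, for 2 among E11.5 females (Dazl and Stk31), against 0.371%, and for 1 among E11.5 males (Dazl), against 0.845%. The permutations within one sex were added after seeing the data.

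The libraries were checked for other cells. The 14 germ cell markers averaged 5.14 to 6.48 per DCKO library and 3.44 to 6.77 per control on the log2(RPKM + 1) scale at E11.5, and 36 somatic markers 0.553 to 3.66 and 0.938 to 4.41. Among the somatic markers, Pecam1 and Fn1 had lowest values of 21.2 and 75.9 RPKM over the E11.5 libraries. Whether germ cells contribute to these was not tested, so the somatic mean may not reflect other cells alone. Libraries had 8277 to 13200 genes at 1 RPKM or more at E11.5 and 9125 to 11095 at E10.5. In bulk RNA, fewer cells of a type and less RNA per cell cannot be told apart. Male control 3 was lowest in germ cell and highest in somatic markers, and it was also the lowest library for Dazl, Ddx4 and Sohlh2. Male control 4 was next lowest for all 3, at 12.1, 11.4 and 9.46 RPKM, with a germ cell marker mean of 6.64 and the fewest genes detected. Without male control 3 the Dazl log2 fold change was 1.74. Without both male control 3 and female DCKO 4, the pair highest in somatic markers, it was 1.77. Its exact permutation p stayed the smallest possible. Full separation of the genotypes holds that p at or near its floor whichever libraries are left out. When the mean of the somatic markers entered the fit as a covariate, Dazl had a log2 fold change of 1.97, with an adjusted p of 0.141 in limma. The same fit gave log2 fold changes of 1.12 for Sohlh2, 0.85 for Ddx4 and 0.05 for Stk31.

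**Figure D5:**
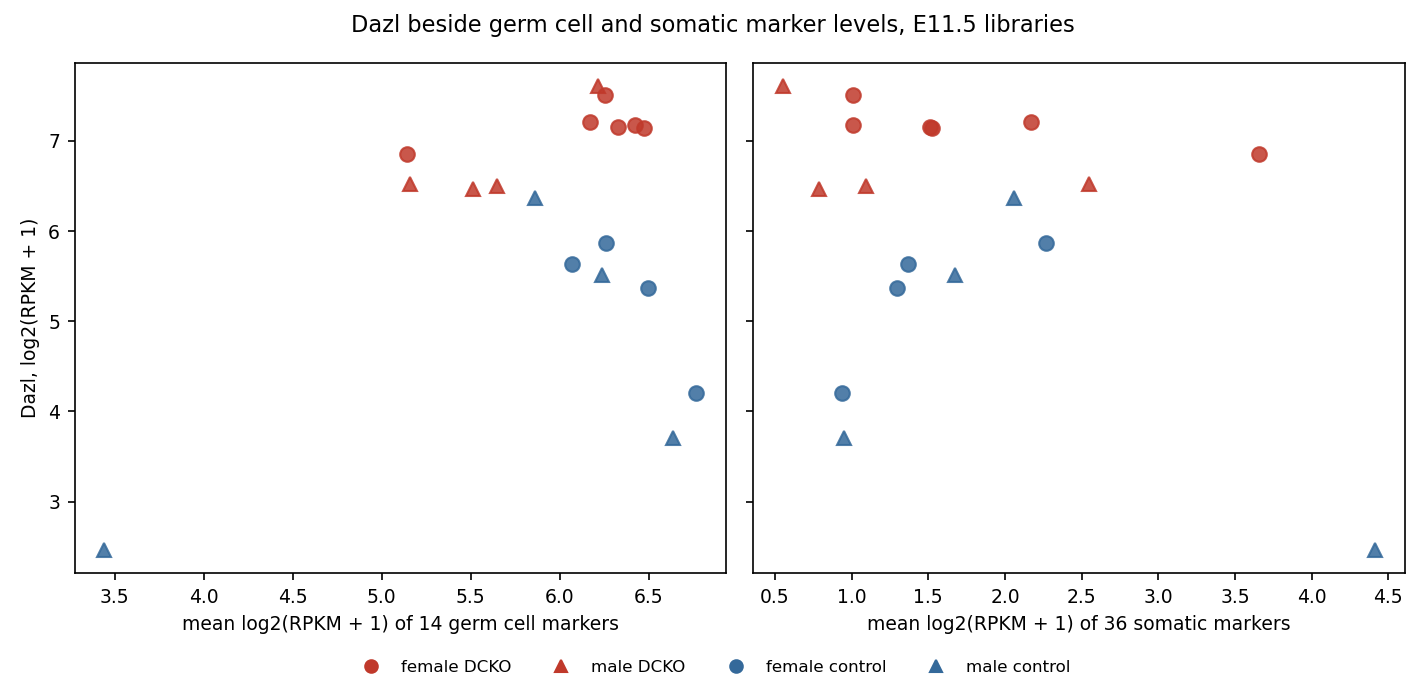
Dazl at E11.5, log2(RPKM + 1), against the mean of 14 germ cell markers (left) and 36 somatic markers (right), also log2(RPKM + 1), per library (circles female, triangles male, red DCKO, blue control). One male control, at a germ cell mean of 3.44 and a somatic mean of 4.41, stands apart, and DCKO libraries lie above the controls.

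Somatic marker lists were level or lower in DCKO libraries, with no gene past the threshold. At E11.5 0 of 6 tested gonadal somatic markers had a fold change above 0 (median -0.45), 1 of 10 mesenchyme markers (median -0.21), 3 of 7 endothelium markers (median -0.002), 2 of 5 erythroid markers (median -0.18) and 0 of 2 macrophage markers (median -1.45). At E10.5 the counts were 1 of 2, 1 of 4, 2 of 5, 4 of 5 and 0 of 2 for the same lists in that order. Tyrobp, C1qb, Amhr2 and Emx2 averaged under 1 RPKM in DCKO libraries at E11.5, so they passed the filter through the controls. At E10.5 this held for Cbln1, Col3a1, Twist1, Emcn and C1qb, while Tek passed through its DCKO libraries. The filter thus favoured the side on which these genes were counted, and their direction carries little weight. The 5 macrophage markers averaged 0 to 0.772 per DCKO library and 0 to 2.19 per control at E11.5, and Csf1r, Ptprc and Aif1 failed the filter on low values. Of the 14 germ cell markers 6 had a fold change above 0 at each stage, with a median of -0.04 in the E11.5 table and -0.07 in the E10.5 table. The median of all tested genes was -0.06 in the E11.5 table, where 45.0% of genes were above 0, and -0.05 in the E10.5 table, where 46.8% were.

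Further genes with roles like those of the members were read from lists chosen with earlier results of these data known. Of the germ cell RNA-binding and translation regulators, 8 of 16 tested had a fold change above 0 at E10.5 (median 0.01) and 10 of 15 at E11.5 (median 0.12), and none passed the test. The shares over all tested genes were 46.8% and 45.0%. Nanos1 and Tdrd7 averaged under 1 RPKM in E10.5 controls, so they entered that count through their DCKO libraries. Ybx2, an RNA-binding protein that stores messenger RNAs in germ cells, averaged 33.5 ± 20.2 RPKM in DCKO libraries and 18.2 ± 10.3 RPKM in controls at E11.5 (SD, n = 10 and 8), with overlap. The log2 fold change of Ybx2 was 0.76 at E11.5 and 0.29 at E10.5. Cpeb1, which regulates polyadenylation of stored messenger RNAs, averaged 43.2 ± 10.8 RPKM in DCKO libraries and 20.1 ± 18.2 RPKM in controls at E10.5 (SD, n = 3 and 4). Tdrd7, a Tudor protein of germ granules, averaged 6.18 ± 6.21 RPKM in DCKO libraries and 0.602 ± 0.453 RPKM in controls at E10.5. Its DCKO libraries ran from 1.19 to 13.1 RPKM and its controls from 0.0804 to 1.05 RPKM, with no overlap, a separation shared by the 2.28% of genes given above. Tdrd7 averaged under 1 RPKM in those controls, so at E10.5 it passed the filter through its DCKO libraries. At E11.5 Tdrd7 overlapped, at 0.742 to 26.9 RPKM in DCKO libraries and 0 to 5.72 RPKM in controls.

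Of the germ cell transcription factors, 9 of 13 tested had a fold change above 0 at E10.5 (median 0.59) and 6 of 14 at E11.5 (median -0.05), with none past the test. The shares over all tested genes were 46.8% and 45.0%. Zglp1 and Taf7l averaged under 1 RPKM in E10.5 controls, so they entered that count through their DCKO libraries. Taf7l did so at E11.5 too. Zglp1, a GATA-like factor of the oogenic programme in mouse, averaged 12.8 ± 13.0 RPKM in DCKO libraries and 0.623 ± 1.24 RPKM in controls at E10.5 (SD, n = 3 and 4). Its DCKO libraries started at 3.36 RPKM and its controls ended at 2.49 RPKM, and the log2 fold change was 2.96 (SE 0.88) with an adjusted p of 0.991 in limma. With controls under 1 RPKM on average, Zglp1 passed the filter through its DCKO libraries, and it is 1 of the 2.28% of genes separated at E10.5. The E11.5 means were 2.98 ± 4.23 RPKM in DCKO libraries and 2.71 ± 3.95 RPKM in controls (SD, n = 10 and 8), a log2 fold change of -0.07, with overlap. Foxo3, which restrains activation of ovarian follicles, averaged 27.3 ± 22.7 RPKM in DCKO libraries and 58.2 ± 38.0 RPKM in controls at E11.5 (SD, n = 10 and 8), a log2 fold change of -1.37 (SE 0.42) with an adjusted p of 0.849 in limma.

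Of 4 reported messenger RNA targets of Dazl protein in mouse, Ddx4 among them, 3 had a fold change above 0 at each stage (median 0.64 at E10.5 and 0.80 at E11.5), and none passed the test. Sycp3, an axial element protein of meiotic chromosomes, averaged 29.6 ± 15.6 RPKM in DCKO libraries and 19.97 ± 23.3 RPKM in controls at E11.5 (SD, n = 10 and 8), with overlap. Tex19.1, which represses transposons in germ cells, averaged 152 ± 96.0 RPKM in DCKO libraries and 109 ± 68.7 RPKM in controls. Cdc25a, a cell cycle phosphatase, had a log2 fold change of -0.18 (SE 0.25). Protein was not measured.

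The genes whose level followed each member most closely were found by Pearson r of log2(RPKM + 1) over the 18 E11.5 libraries, among 8875 genes above 0 in all of them (for Boll, which is listed at 0 in some, 8876). For Dazl they were Rnf17, a Tudor protein of the germline (r = 0.823), Sohlh2 (0.821) and Rpl26, a ribosomal protein (0.813), with Ddx4 at rank 4. For Ddx4 they were Rpl26 (0.850), Cct8 (0.847) and Trim37 (0.833). For Sohlh2 they were Cpeb1 (0.856), Trap1a (0.848) and Rpl26 (0.836). All of these pooled values lean on male controls 3 and 4: without them r with the same genes was 0.407 to 0.693.

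Over all 18 libraries, male controls 3 and 4 included, Dazl and Ddx4 stayed correlated once genotype and sex were set aside. After the 4 group means were removed, Ddx4 was the closest of the 8875 genes to Dazl (r = 0.931), and Dazl the closest to Ddx4. With male controls 3 and 4 dropped after that step, r was 0.876. The group means removed still included those libraries, which leaves male controls 1 and 2 above their group mean in both genes. This value thus does not set male controls 3 and 4 aside, and r with the means taken without them was not calculated. Before the group means were removed the r of Dazl and Ddx4 was 0.808 (Spearman's rho 0.484), and 0.406 without male controls 3 and 4. For Stk31 the closest genes were Nr1d2 (r = 0.933), Dppa2, a chromatin protein of pluripotent and germ cells (0.907), and Pnldc1, an exonuclease that trims piRNAs (0.896), and r was 0.784, 0.660 and 0.711 without male control 3 and male DCKO 1. For Boll they were Pik3r5 (0.834), Erf (0.809) and Ugt8a (0.799), and r was 0.567, 0.543 and 0.686 without male DCKO 1 and 3, the libraries with most Boll. Spearman's rho of Boll with Pik3r5 was 0.370. These correlations are descriptions of 18 libraries that share tables, amplification and group structure.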

How the data were processed

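The authors deposited 1 table per stage in RPKM, 1 column per sample. The submitters' processing notes name the build mm9, TopHat2 2.1.0, Cufflinks 2.2.1 and Cuffdiff, without their roles. No label or header states the gene models, filters or strand handling. Low values do not fall on multiples of a single read, so depth is unknown and counting intervals are left out. RPKM summed to between 669740 and 1121158 per library at E10.5 and between 516450 and 1027688 at E11.5. At E11.5, 104 of 3491 genes whose median reached 20 RPKM had a library listed at 0. No pair of libraries was identical. Of E13.5, 12 labelled samples are not analysed here.

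Samples were grouped by stage, sex and genotype in the labels, and each stage was tested in its own table. Tests used limma 3.58.1 in R 4.3.3 with a trend on log2(RPKM + 1), for genes averaging 1 RPKM or more, Benjamini-Hochberg adjusted over all of them, two-sided, with a threshold of 0.05. At E11.5 each sex and genotype had its own mean, and the genotype effect averages the 2 sexes' differences. At E10.5, with 1 male DCKO library, genotype and sex were additive terms. The model was run on simulated data with independent noise and shifts larger than the members' main fitted changes. That run does not gauge its power or error rate for these data. Exact two-sided permutations used the difference in mean log2(RPKM + 1) of 1 gene at a time.

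The 6 genes, the gene lists (germ cell RNA-binding and translation regulators, germ cell transcription factors, reported targets of Dazl protein, and markers of germ, gonadal somatic, mesenchyme, endothelium, erythroid and macrophage cells) and the tests were chosen with earlier results of these data known. Named genes are the 6, Dnmt1, up to 4 genes of each list with the smallest p, and the 3 genes most like each member. Also named are genes fully separated at E11.5, and list genes that limit the reading of a count or mean. Meioc was matched under an older symbol. Alternatives were other pseudocounts, filters, scalings, library weights, blocks, covariates, leaving out libraries, and other exchanges in the permutations. Promoter windows are from RefSeq on GRCm38.p6, used for sequence only, since the tables' build is mm9.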

Additional observations from a re-analysis of the deposited data

Results flagged for a closer look

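In male DCKO libraries at E11.5, Dazl of replicate 4 stood at 194 RPKM, far from the other 3 at 87.6 to 90.7 RPKM. The same library had the highest Ddx4 of all E11.5 libraries, 130 RPKM, and the lowest somatic marker mean. Without it the Dazl fold change over both sexes was 1.95 on the log2 scale. In male controls at E11.5, Sohlh1 of replicate 2 was at 0.810 RPKM while the other 3 were listed at 0. Over the 26 groups of values tested in this way, chance alone flags about 1 in 20.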

How the results depend on the processing

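Depth is unknown, and E10.5 has 3 against 4 libraries, so its permutation p cannot go below 0.0286. Direction and side of the threshold held for the members under most alternatives: the E11.5 Dazl log2 fold change ran from 1.49 (library weights) to 2.39. Leaving out 1 E11.5 library gave 1.74 to 2.39 for Dazl, 0 to 1 members past the threshold in limma, and -0.073 to 0.63 for Stk31. With the germ cell marker mean as covariate 1 member passed, Dazl at 2.14. Stk31 at E11.5 was -0.051 without the pair of libraries highest in somatic markers, and Boll at E10.5 was -0.82 with library weights. The number of members with a permutation p under 0.05 at E10.5 was 2 on the linear scale, where Dazl had an exact p of 0.0286, and 0 with exchange within sex, within title number, or without any 1 library, settings whose smallest possible p is 0.05 or more. The cause of these changes was not tested, apart from the smaller number of splits.

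The replicate block gave a Dazl log2 fold change of 2.04 at E11.5 (limma adjusted p = 0.981) and 2.97 at E10.5 (0.922). A block by title number gave 1.94 (0.772) and 2.23 (0.912). At E11.5 deviations from the group means correlated over 0.1 in 2 of 8 pairs with the same replicate number (median -0.053). They did so in 6 of 13 pairs with the same title number (median 0.077, highest 0.490). Unrelated pairs are not given for comparison, so whether the title number marks shared deviations is not settled. Under either block 0 members passed in limma, as without it, but counts over all genes moved: male genotype 2 (replicate number) and 1 (title number) against 4, and interaction 2 (replicate number) against 0. Over all alternatives the genes past the threshold numbered 2 to 5 for genotype at E11.5 (3 as reported), 1 to 4 for females (1), 1 to 4 for males (4), 0 to 14 for the sex difference in DCKO (1) and 0 to 22 in controls (1), and 0 to 11 for genotype at E10.5 (0). Blocks by replicate number within sex could not be fitted to the female minus male differences.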

Other observations

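In the 4 male controls at E11.5 the level of Dazl ran from 4.50 to 81.8 RPKM, while ratios between members within a library hardly moved: Dazl over Ddx4 was 0.915 to 1.09, Dazl over Sohlh2 1.20 to 1.34 and Ddx4 over Sohlh2 1.21 to 1.35. In the 4 male DCKO libraries the same ratios were 1.19 to 1.73, 0.983 to 7.48 and 0.810 to 5.01. In female DCKO libraries Dazl over Sohlh2 was 1.56 to 3.52, against 0.574 to 2.74 in female controls. Stk31 did not share this pattern: Dazl over Stk31 was 2.40 to 53.5 in male DCKO libraries, against 1.13 to 2.72 in male controls. These ratios were chosen after the values were seen and were not tested.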
